A study of Homo sapiens with 12 samples.

Results

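The 10 genes described here activate, place, build or oxidise the fatty acids of membrane phospholipids, and they were read from a table of 70116 genes for MiaPaCa-2 cells, a human line established from a pancreatic carcinoma. ACSL1, ACSL3, ACSL4 and ACSL5 encode long-chain acyl-CoA synthetases, LPCAT3 and MBOAT2 encode lysophospholipid acyltransferases, AGPS and FAR1 make ether lipids, ALOXE3 belongs to the lipoxygenase family, and POR passes electrons to oxidising enzymes. They were chosen by symbol, with earlier results of these data known, and each matched 1 row of the table. Of the 10, 9 had enough counts to be tested, and ACSL5 did not.

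Cells were transfected with a control siRNA (siControl), or with an siRNA against SLC25A1 (siSLC25A1), the mitochondrial citrate exporter, against ACLY (siACLY), the enzyme that cleaves cytosolic citrate to acetyl-CoA, or against ACO1 (siACO1), the cytosolic aconitase. Each group had 3 libraries, made from poly(A) RNA, and the labels name no agent besides the siRNA, no time after transfection and no change of medium. All 4 groups share the same line, so each is a model of knockdown in 1 cancer line. The labels call the libraries replicates but do not say that they came from separate cultures, and the p-values therefore measure the spread between these libraries, which may be technical.

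Ferroptosis, named in the series title, is a death of cells in which polyunsaturated fatty acids in membrane phospholipids are peroxidised with the help of iron. ACSL4 attaches coenzyme A to polyunsaturated fatty acids such as arachidonic acid, and LPCAT3 then inserts them into phospholipids, which makes membranes easier to oxidise. ACSL3 and MBOAT2 do the corresponding steps for monounsaturated fatty acids, which resist oxidation. Peroxisomal AGPS and FAR1 supply ether phospholipids, while lipoxygenases and POR can start or spread the oxidation.

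Library totals ran from 24159424 to 43792811 counts, and replicates correlated at Pearson's r of 0.991 to 0.994 across genes. Each targeted gene was low in its own knockdown: SLC25A1 stood at 8.78% of its siControl mean, ACLY at 7.25% and ACO1 at 3.75%. The siACO1 replicate 3 library stood apart from the other siACO1 libraries, with a chi-square per degree of freedom of 11.9 and 12.6 against them, where those 2 differed from each other by 2.31. Its difference from them followed gene length (Spearman's rho = -0.244 over 15384 genes, not independent of each other), and the part of this in the siACO1 results was not tested. The cells held KRT8, KRT18 and KRT19 and abundant VIM. The epithelial markers EPCAM, CDH1, KRT7 and S100P and the mesenchymal marker CDH2 were at or near 0, with KRT7 at 0.166 CPM in siControl. In siACO1 the summed epithelial marker list, mostly KRT8 and KRT18, was 2067 to 2181 CPM against 3607 to 3745 in siControl. That list summed to 3125 to 3453 CPM in siSLC25A1 and 3824 to 3923 CPM in siACLY. COL1A2, the 1 fibroblast marker of 6 above 1 CPM, brought the fibroblast sum in siACO1 to 1546 to 1592 CPM against 875 to 895 in siControl. LUM was at 0 in every library, 5 of 6 acinar markers had no counts, and the leukocyte sum, at most 2.27 CPM, came without PTPRC, CD3E or MS4A1. The mesenchymal list, mostly VIM, summed to 4372 to 4909 CPM in siACLY and 3918 to 3989 CPM in siSLC25A1, against 3568 to 3716 CPM in siControl and 3535 to 3900 CPM in siACO1. ZEB1 averaged 96.8 CPM in siACLY and 100.3 CPM in siSLC25A1, against 63.9 CPM in siControl and 63.5 CPM in siACO1. The part of these markers in the results of the knockdowns was not tested.

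Levels are CPM, counts relative to the library's size, after scaling by TMM, the trimmed mean of M values. Called genes are those whose adjusted p was under 0.05 in edgeR's quasi-likelihood test, with Benjamini-Hochberg adjustment over all 16197 genes tested. Fold changes are on the log2 scale with their standard errors (SE). The same 3 siControl libraries serve all 3 comparisons with siControl, so an unusual control value moves all 3 together. Counts are relative to the library, and fewer cells of a kind cannot be told apart from less RNA per cell.

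Per kilobase of exon, the siControl levels ran from FAR1 at 23.5 CPM per kb through POR at 20.8, ACSL3 at 14.7 and AGPS at 10.8 to ACSL4 at 8.71 ± 0.0942 and ACSL1 at 8.47 ± 0.287 (SD, n = 3), with the libraries of the last 2 overlapping. LPCAT3 at 3.89 and MBOAT2 at 3.44 CPM per kb followed, then ALOXE3 at 0.475, and ACSL5 at 0.0137 was last. In siACLY ACSL4 at 15.7 CPM per kb stood above both ACSL3 at 11.2 and AGPS at 9.80, with no overlap between libraries, and MBOAT2 at 4.38 stood above LPCAT3 at 2.37. MBOAT2 was above LPCAT3 in siSLC25A1 too, at 3.97 against 2.71, and in siACO1, at 4.13 against 3.07. The LPCAT3 level per kilobase, and so its order against MBOAT2, is uncertain. Of its exon bases 65.6% overlap EMG1, a gene on the other strand, and it is not known whether counting used the strand.

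**Figure D1:**
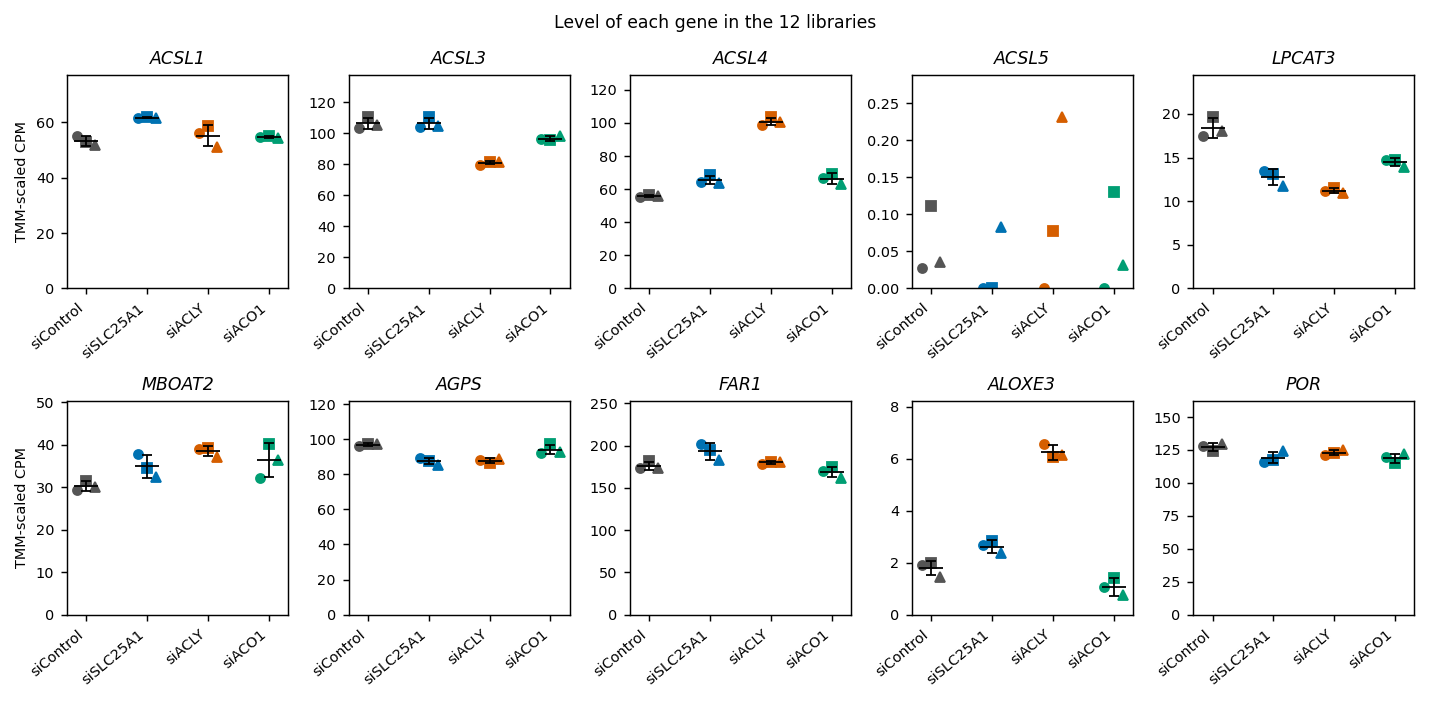
TMM-scaled CPM of the 10 genes in each of the 12 libraries, with 1 panel per gene, the group on the x axis and the level on a y axis that starts at 0. Circles, squares and triangles are replicates 1, 2 and 3, and bars are the mean ± SD over 3 libraries (omitted for ACSL5, which had at most 6 counts in a library). ACSL4 and ALOXE3 are highest in siACLY, and LPCAT3 is lower in every knockdown than in siControl.

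Against siControl, 7 of the 9 tested genes were called in siSLC25A1 (5 higher and 2 lower), where 19.6% of all tested genes were called, 10.3% higher and 9.27% lower. In siACLY 6 were called, 3 in each direction, against 36.7% of all genes, 18.4% higher and 18.3% lower. In siACO1 5 were called, 2 higher and 3 lower, against 37.1%, 17.8% higher and 19.3% lower. The 3 knockdown and 3 control libraries did not overlap for 8 of the 9 in siSLC25A1, 6 in siACLY and 6 in siACO1, where 37.1%, 50.5% and 46.3% of all genes did not. ACSL4 and MBOAT2 were higher and LPCAT3 lower in all 3 knockdowns, as were 309 (1.91%) and 345 (2.13%) of all tested genes. ALOXE3 was called in all 3 as well, higher in siSLC25A1 and siACLY and lower in siACO1. The median log2 fold change of the 9 was 0.14 in siSLC25A1, 0.03 in siACLY and -0.06 in siACO1, beside 0.00, 0.01 and 0.01 over all genes. Most of the siSLC25A1 changes were small, and the count of 7 there dropped to 4 without siControl replicate 1, 3 without siControl replicate 3, and 4 without siSLC25A1 replicate 1 or without siSLC25A1 replicate 2.

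**Figure D2:**
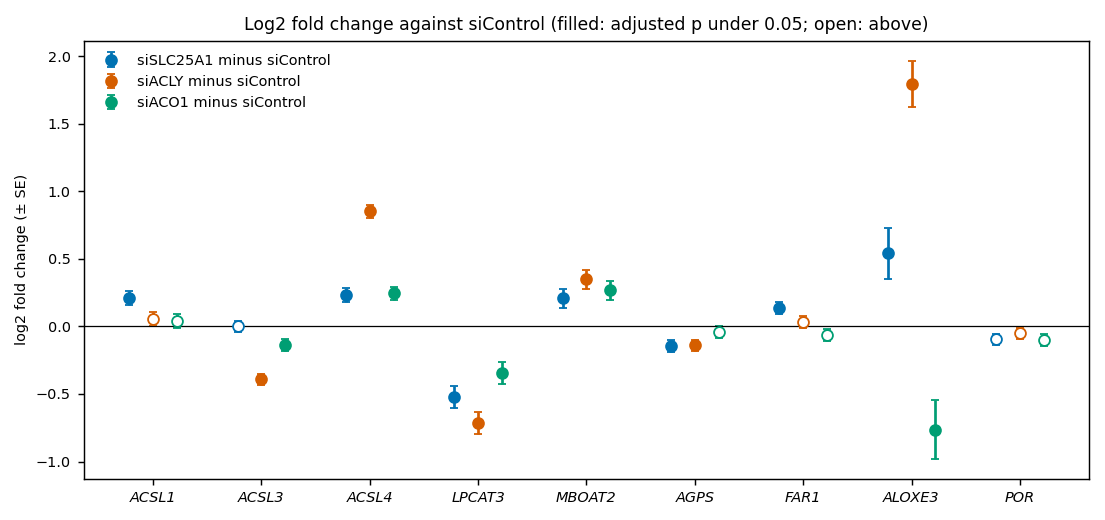
Log2 fold change against siControl (y axis) of the 9 tested genes (x axis) in the 3 knockdowns. Points are estimates and bars are ± 1 SE, and filled points have an adjusted p under 0.05. ALOXE3 spans from -0.76 in siACO1 to 1.80 in siACLY, while POR lies within 0.10 of 0 throughout and is filled in none.

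The acyl-CoA synthetases come first, since a fatty acid must carry coenzyme A before it can enter a phospholipid. ACSL4 (ENSG00000068366.21, chromosome X, 109624244 to 109733403 on the minus strand, GRCh38) rose in every knockdown and most in siACLY. Its levels in siControl were 55.2, 56.3 and 56.1 CPM, and those in siACLY were 98.8, 103 and 100 CPM. In siSLC25A1 they were 64.5, 68.6 and 63.8 CPM, and in siACO1 66.8, 69.1 and 62.8 CPM. No knockdown library fell within the control range, and the siACLY libraries lay above all 9 others. The rise was 1.80-fold in siACLY (log2 0.85, SE 0.05, adjusted p = 2.13e-14), 1.17-fold in siSLC25A1 (log2 0.23, SE 0.05, adjusted p = 0.000748) and 1.19-fold in siACO1 (log2 0.25, SE 0.05, adjusted p = 0.000152). Compared directly, ACSL4 was lower in siSLC25A1 than in siACLY (log2 -0.62, adjusted p = 3.2e-11) and higher in siACLY than in siACO1 (log2 0.61, adjusted p = 1.58e-11). Between siSLC25A1 and siACO1 the log2 difference was -0.01 with an SE of 0.05, which did not pass the test (adjusted p = 0.848).

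ACSL3 (ENSG00000123983.15, chromosome 2, 222860934 to 222944639, plus strand), whose product favours monounsaturated fatty acids and sits on the endoplasmic reticulum and lipid droplets, went the other way in siACLY. It measured 103, 110 and 105 CPM in siControl and 79.7, 81.6 and 81.7 CPM in siACLY. In siACO1 it measured 96.2, 95.3 and 98.0 CPM, and in siSLC25A1 104, 110 and 105 CPM. The siACLY and siACO1 libraries were all below the controls, and the siSLC25A1 libraries overlapped them. ACSL3 fell by 0.39 on the log2 scale in siACLY (SE 0.04, adjusted p = 2.42e-08) and by 0.14 in siACO1 (SE 0.04, adjusted p = 0.0111), with a difference of 0.00 in siSLC25A1 (SE 0.04, adjusted p = 0.992). The siACO1 call was lost when libraries were scaled by their totals (log2 -0.09, adjusted p = 0.101) and without siControl replicate 2 (log2 -0.11, adjusted p = 0.0737). ACSL3 also differed between siACLY and each other knockdown, with log2 differences of 0.39 for siSLC25A1 over siACLY (adjusted p = 3.33e-08) and -0.25 for siACLY against siACO1 (adjusted p = 1.95e-05).

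ACSL1 (ENSG00000151726.16, chromosome 4, 184755595 to 184826818, minus strand), a broad long-chain synthetase, rose only in siSLC25A1 among the 3 comparisons with siControl. Its siControl libraries held 55.2, 52.8 and 51.7 CPM and its siSLC25A1 libraries 61.7, 61.9 and 61.5 CPM. The siACLY libraries, at 56.3, 58.5 and 51.0 CPM, straddled the controls, and the siACO1 libraries, at 54.7, 54.9 and 54.3 CPM, lay inside their range. The log2 fold changes were 0.21 in siSLC25A1 (SE 0.05, adjusted p = 0.00338), 0.05 in siACLY (SE 0.05, adjusted p = 0.439) and 0.04 in siACO1 (SE 0.05, adjusted p = 0.620). Tested directly, the siSLC25A1 level exceeded that of siACO1 (log2 0.17, adjusted p = 0.00726) and that of siACLY (log2 0.16, adjusted p = 0.0187), the latter call being lost without siACLY replicate 3 (log2 0.11, adjusted p = 0.134) or with library totals (log2 0.12, adjusted p = 0.0879).

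ACSL5 (ENSG00000197142.11, chromosome 10, 112374018 to 112428380, plus strand), a synthetase of mitochondria and endoplasmic reticulum, was close to undetected. It had 1, 4 and 1 counts in siControl, 0, 0 and 2 in siSLC25A1, 0, 2 and 6 in siACLY, and 0, 4 and 1 in siACO1, so no difference was detectable at this depth. ACSL6, the remaining gene of the family, also had 0 to 6 counts per library and was not tested. The long-chain synthetases measured at depth in this line were therefore ACSL1, ACSL3 and ACSL4.

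LPCAT3 and MBOAT2 act on the next step, in which an acyltransferase moves the activated fatty acid onto a lysophospholipid. LPCAT3 (ENSG00000111684.11, chromosome 12, 6976186 to 7018510, minus strand) fell in all 3 knockdowns. It measured 17.4, 19.6 and 18.1 CPM in siControl, 13.5, 13.2 and 11.7 CPM in siSLC25A1, 11.1, 11.5 and 11.0 CPM in siACLY, and 14.8, 14.7 and 13.96 CPM in siACO1. All 9 knockdown libraries were below the lowest control, with siACLY lowest. The mean was 69.7% of control in siSLC25A1 (log2 -0.52, SE 0.08, adjusted p = 1.75e-05), 60.9% in siACLY (log2 -0.72, SE 0.08, adjusted p = 3.55e-08) and 78.8% in siACO1 (log2 -0.34, SE 0.08, adjusted p = 0.000822). Of the differences between knockdowns, that of siACLY against siACO1 passed the test (log2 -0.37, adjusted p = 0.000541), while those of siSLC25A1 against siACLY (log2 0.19, adjusted p = 0.0786) and against siACO1 (log2 -0.18, adjusted p = 0.0878) did not.

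The LPCAT3 values carry an uncertainty, since 65.6% of its exon bases overlap EMG1, a ribosome assembly gene on the opposite strand, and it is not known whether counting used the strand. EMG1 moved the other way where it was called: it was at 19.1, 19.5 and 18.9 CPM in siControl, 22.3, 22.3 and 22.1 CPM in siSLC25A1 and 23.8, 26.3 and 24.2 CPM in siACLY. Its log2 fold changes were 0.22 (adjusted p = 0.0332), 0.37 (adjusted p = 0.000119) and, in siACO1, -0.05 (adjusted p = 0.617). The lower LPCAT3 counts in siSLC25A1 and siACLY thus stood beside higher counts of the gene that shares its bases.

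MBOAT2 (ENSG00000143797.12, chromosome 2, 8852690 to 9003813, minus strand) rose where LPCAT3 fell. In siControl it measured 29.3, 31.5 and 30.0 CPM, in siSLC25A1 37.8, 34.5 and 32.3 CPM, in siACLY 39.1, 39.3 and 37.2 CPM, and in siACO1 32.3, 40.3 and 36.4 CPM. Every knockdown library was above the highest control, although the siACO1 libraries were spread widely. The rises were 1.15-fold in siSLC25A1 (log2 0.21, SE 0.07, adjusted p = 0.0359), 1.27-fold in siACLY (log2 0.35, SE 0.07, adjusted p = 0.000175) and 1.20-fold in siACO1 (log2 0.27, SE 0.07, adjusted p = 0.00289), and no difference between knockdowns passed the test (adjusted p from 0.117 to 0.529). The siSLC25A1 call was lost without siControl replicate 1 (log2 0.18, adjusted p = 0.143), siControl replicate 3 (log2 0.20, adjusted p = 0.101), siSLC25A1 replicate 1 (log2 0.14, adjusted p = 0.223) or siSLC25A1 replicate 2 (log2 0.22, adjusted p = 0.0732). In siACO1 it was lost without siACO1 replicate 2, the highest library (log2 0.18, adjusted p = 0.0515).

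The promoters of these 3 genes that were called the same way in every knockdown are shown because they let the sequences upstream of the moving genes be compared. Each runs from 250 bases before to 50 bases after the RefSeq start on GRCh38.p14, 5′ to 3′ on the gene's own strand (minus for all 3), with capitals marking the motifs found by search: the GC box GGGCGG, the CCAAT box, the TATA box TATAAA, the antioxidant response core TGACNNNGC, the ATF4 element TGATGNAA, the sterol element TCACNCCAC, the E-box CACGTG and the cAMP element TGACGT, each on either strand. RefSeq promoters were matched for 9 of the 10 genes, POR being the other.
ACSL4, chrX:109733208-109733507: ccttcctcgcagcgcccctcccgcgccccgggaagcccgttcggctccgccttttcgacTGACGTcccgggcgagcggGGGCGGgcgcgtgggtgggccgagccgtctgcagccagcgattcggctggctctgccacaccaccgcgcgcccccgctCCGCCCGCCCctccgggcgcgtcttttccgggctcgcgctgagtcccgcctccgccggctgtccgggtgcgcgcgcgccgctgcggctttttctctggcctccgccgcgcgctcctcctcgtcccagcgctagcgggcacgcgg
LPCAT3, chr12:7018427-7018726: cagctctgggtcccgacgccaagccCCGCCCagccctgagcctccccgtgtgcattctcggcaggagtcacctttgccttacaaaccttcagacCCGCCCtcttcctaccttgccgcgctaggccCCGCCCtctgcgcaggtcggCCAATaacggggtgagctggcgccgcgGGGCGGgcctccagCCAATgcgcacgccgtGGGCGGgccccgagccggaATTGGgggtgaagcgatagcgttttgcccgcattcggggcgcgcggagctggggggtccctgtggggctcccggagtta
MBOAT2, chr2:9003635-9003934: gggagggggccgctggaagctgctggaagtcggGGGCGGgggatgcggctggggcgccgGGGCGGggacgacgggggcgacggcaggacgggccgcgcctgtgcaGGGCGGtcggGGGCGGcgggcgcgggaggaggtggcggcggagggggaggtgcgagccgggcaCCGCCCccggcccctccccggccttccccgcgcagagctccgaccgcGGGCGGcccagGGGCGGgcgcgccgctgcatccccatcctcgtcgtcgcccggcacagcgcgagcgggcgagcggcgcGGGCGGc
ACSL4 held 3 GC boxes, 2 of which overlap, and 1 TGACGT, LPCAT3 held 5 GC boxes and 3 CCAAT motifs, and MBOAT2 held 8 GC boxes. Over 35116 promoters of the same length, 45.0% held a GC box, 34.6% a CCAAT motif and 7.98% a TGACGT. The GC content was 77.7% for ACSL4, 70% for LPCAT3 and 83.7% for MBOAT2, beside a median of 58.7% over all promoters. GC boxes are thus the 1 motif of those searched that all 3 share, and the rising and the falling genes both have them. They also occur in promoters of ACSL1, ACSL3, AGPS, FAR1 and ALOXE3, which were not called the same way in every knockdown.

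Because ACSL4 and ACSL3, and LPCAT3 and MBOAT2, handle polyunsaturated and monounsaturated fatty acids respectively, the counts of each pair were set against each other within a library, which needs no scaling between libraries. The ratios were chosen after the values of single genes were seen. The ACSL4 to ACSL3 count ratio was 0.535, 0.512 and 0.532 in siControl, 0.619, 0.622 and 0.610 in siSLC25A1, 1.24, 1.27 and 1.23 in siACLY, and 0.694, 0.725 and 0.641 in siACO1. ACSL4 therefore had fewer counts than ACSL3 in every library outside siACLY and more in all 3 siACLY libraries. The mean ratio was 2.37 times that of siControl in siACLY, 1.17 times in siSLC25A1 and 1.30 times in siACO1.

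The MBOAT2 to LPCAT3 ratio was 1.65 ± 0.0387 in siControl (SD, n = 3), 2.73 ± 0.0942 in siSLC25A1, 3.44 ± 0.0655 in siACLY and 2.51 ± 0.288 in siACO1. It was thus 1.65, 2.09 and 1.51 times the control ratio. ACSL4, of the polyunsaturated route, thus had a higher ratio to ACSL3, and LPCAT3, of the same route, a lower one to MBOAT2, in every knockdown library. Since the pairs were chosen from the values of their genes, these ratios are a description. An exact two-sided permutation test of each knockdown against siControl gave p = 0.1 for both ratios. That is the smallest p that 3 against 3 libraries can give, so the test cannot decide. The MBOAT2 to LPCAT3 ratio also carries the uncertainty of the LPCAT3 counts, since most LPCAT3 exon bases overlap EMG1.

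**Figure D3:**
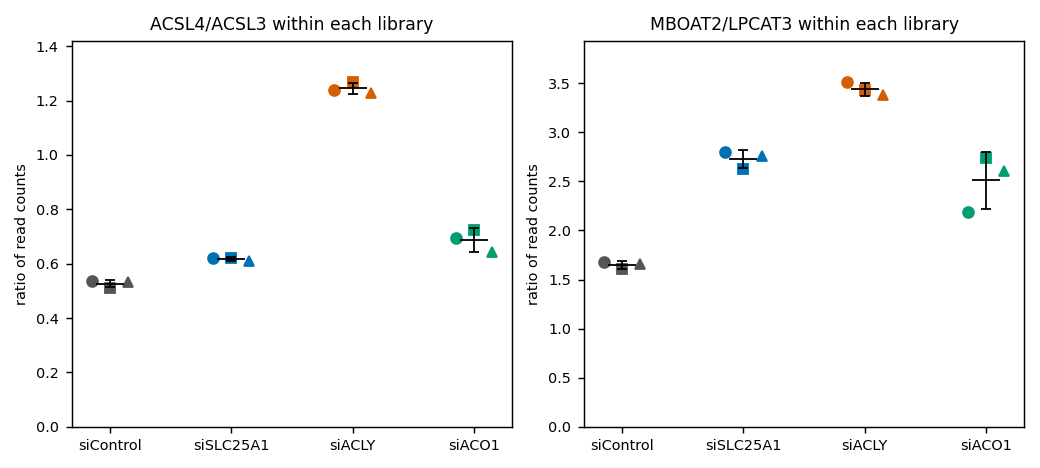
Ratio of counts of ACSL4 to ACSL3 and of MBOAT2 to LPCAT3 (y axis) in each library, by group (x axis). Points are libraries and bars the mean ± SD over 3 libraries. The ACSL4 to ACSL3 ratio passes 1 only in siACLY, and the MBOAT2 to LPCAT3 ratio is lowest in siControl. LPCAT3 shares exon bases with EMG1, so its counts are uncertain.

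AGPS and FAR1, the ether lipid genes, changed little. AGPS (ENSG00000018510.18, chromosome 2, 177392644 to 177559299, plus strand) makes the ether bond in peroxisomes. It was at 95.9, 97.5 and 97.3 CPM in siControl, 89.2, 87.8 and 85.6 CPM in siSLC25A1, 88.2, 86.6 and 88.9 CPM in siACLY, and 92.2, 97.2 and 92.8 CPM in siACO1. The siSLC25A1 and siACLY libraries were all below the controls, and the siACO1 libraries overlapped them. AGPS fell to 90.4% of control in siSLC25A1 (log2 -0.15, SE 0.04, adjusted p = 0.0134) and to 90.7% in siACLY (log2 -0.14, SE 0.04, adjusted p = 0.00892), and differed by -0.04 in siACO1 (SE 0.04, adjusted p = 0.470). The siSLC25A1 call was lost without siControl replicate 3 (log2 -0.14, adjusted p = 0.0505) or siSLC25A1 replicate 3 (log2 -0.13, adjusted p = 0.0680), and the siACLY call with library totals (log2 -0.10, adjusted p = 0.0750).

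FAR1 (ENSG00000197601.14, chromosome 11, 13668670 to 13732346, plus strand), which reduces fatty acyl-CoA to the fatty alcohol used by AGPS, had the highest level per kilobase of the 10 genes. It measured 173, 181 and 174 CPM in siControl and 202, 195 and 183 CPM in siSLC25A1. The siACLY libraries, at 178, 181 and 181 CPM, and the siACO1 libraries, at 170, 174 and 162 CPM, overlapped the controls. FAR1 rose 1.10-fold in siSLC25A1 (log2 0.14, SE 0.04, adjusted p = 0.0235), with log2 fold changes of 0.03 in siACLY (adjusted p = 0.596) and -0.06 in siACO1 (adjusted p = 0.266). That call was lost without a filter on low counts (log2 0.12, adjusted p = 0.0867) and without any of siControl replicate 1 (log2 0.12, adjusted p = 0.104), siControl replicate 3 (log2 0.13, adjusted p = 0.0986), siSLC25A1 replicate 1 (log2 0.10, adjusted p = 0.132) or siSLC25A1 replicate 2 (log2 0.13, adjusted p = 0.0800). In direct comparison FAR1 was higher in siSLC25A1 than in siACO1 (log2 0.20, adjusted p = 0.000396).

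ALOXE3 and POR are the genes here that act on lipid oxidation or its products, and their levels do not measure oxidation. ALOXE3 (ENSG00000179148.10, chromosome 17, 8095900 to 8119047, minus strand) encodes a lipoxygenase family enzyme, known from the skin barrier, that rearranges lipid hydroperoxides. Its levels were low, at 1.93, 1.97 and 1.47 CPM in siControl (69, 71 and 41 counts). They were 2.69, 2.82 and 2.36 CPM in siSLC25A1, 6.59, 6.05 and 6.13 CPM in siACLY, and 1.05, 1.40 and 0.738 CPM in siACO1, where the libraries held 26, 43 and 23 counts. The 4 groups did not overlap, in the order siACO1, siControl, siSLC25A1 and siACLY.

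ALOXE3 rose 3.47-fold in siACLY (log2 1.80, SE 0.17, adjusted p = 1.61e-09), the largest fold change of the 9 tested genes. In siACO1 it fell to 58.9% of control (log2 -0.76, SE 0.22, adjusted p = 0.00607), and this call was lost without siACO1 replicate 3, the library that stood apart (log2 -0.55, adjusted p = 0.0561). The 1.45-fold rise in siSLC25A1 (log2 0.54, SE 0.19, adjusted p = 0.0441) lay at the threshold: it was lost with DESeq2 (log2 0.55, adjusted p = 0.0558), without the filter (log2 0.53, adjusted p = 0.0670), and without siControl replicate 1 (log2 0.59, adjusted p = 0.0701), siControl replicate 2 (log2 0.61, adjusted p = 0.0570), siControl replicate 3 (log2 0.43, adjusted p = 0.174), siSLC25A1 replicate 1 (log2 0.52, adjusted p = 0.104) or siSLC25A1 replicate 2 (log2 0.49, adjusted p = 0.137). The knockdowns differed from each other in every pair, with siSLC25A1 below siACLY (log2 -1.26, adjusted p = 8.48e-07), above siACO1 (log2 1.30, adjusted p = 1.03e-05), and siACLY above siACO1 (log2 2.56, adjusted p = 5.74e-12).

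ALOXE3 alone of the 10 genes carries the 7-base word TCTACGT in its 3′ UTR, at base 387 of 726 in the transcript ENST00000448843.6 of GENCODE 29. The site is shown with the word in capitals, because genes with that word were lower in siACO1.
ALOXE3 site: taccatgccttTCTACGTtctctttcttcc
Of the tested genes, 272 hold the word in a 3′ UTR, and their median log2 fold change in siACO1 was -0.16, with 69.1% below 0, against -0.02 and 52.9% for the 11647 genes without it. In siSLC25A1 the medians were 0.01 and 0.00, and in siACLY 0.02 and -0.01. Another word searched, AACTAAC, is in the 3′ UTR of none of the 10 genes. The 895 genes with AACTAAC had a median of -0.11 in siACO1, with 65.5% below 0. The 11024 genes without it had a median of -0.01, with 52.2% below 0. TCTACGT was picked from earlier results of these data and the siRNA sequences are not in the labels, so these values are a description. The part of the TCTACGT site in the ALOXE3 fall was not tested. Genes with and without a word were not matched for the length of the 3′ UTR. The part of that length, or of the gene-length trend of siACO1 replicate 3, in these medians was not tested either.

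RefSeq lists 3 ALOXE3 starts, and the promoter of the outermost is shown for contrast with the GC-rich promoters above.
ALOXE3, chr17:8118867-8119166: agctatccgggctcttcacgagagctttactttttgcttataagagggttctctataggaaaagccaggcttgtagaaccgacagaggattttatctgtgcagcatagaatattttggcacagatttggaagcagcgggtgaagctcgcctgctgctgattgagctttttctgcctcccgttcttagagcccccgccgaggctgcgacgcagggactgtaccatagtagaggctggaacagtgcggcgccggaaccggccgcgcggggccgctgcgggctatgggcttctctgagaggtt
It holds none of the 8 motifs searched, and its GC content was 55.3%. The second promoter holds 1 CACGTG, a motif of 7.26% of all promoters, and the third holds 1 GC box, 2 CCAAT motifs and 1 TGACNNNGC, the last found in 13.3%.

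POR (ENSG00000127948.17, chromosome 7, 75899200 to 75986855, plus strand), the reductase that feeds electrons to microsomal cytochromes P450, passed the test in no comparison with siControl. It measured 128, 124.3 and 130 CPM in siControl, 116, 117 and 124.1 CPM in siSLC25A1, 121, 123 and 125 CPM in siACLY, and 119, 115 and 122 CPM in siACO1. The siACO1 libraries were all below the controls, the highest siSLC25A1 library lay just under the lowest control, and the siACLY libraries overlapped the controls. Its log2 fold changes were -0.10 in siSLC25A1 (SE 0.04, adjusted p = 0.111), -0.05 in siACLY (SE 0.04, adjusted p = 0.374) and -0.10 in siACO1 (SE 0.04, adjusted p = 0.0600). The siACO1 difference passed with DESeq2 (log2 -0.11, adjusted p = 0.0442) and without siACO1 replicate 3 (log2 -0.12, adjusted p = 0.0166).

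Between knockdowns, 4 of the 9 genes were called for siSLC25A1 against siACLY (2 higher and 2 lower), where 33.8% of all genes were, 17.5% higher and 16.3% lower. For siSLC25A1 against siACO1 5 were called, 4 higher and 1 lower, against 42.1% of all genes, 21.8% higher and 20.3% lower. For siACLY against siACO1 4 were called, 2 in each direction, against 42.1%, 21.4% higher and 20.7% lower. ACSL3 and ALOXE3 were called in all 3 of these comparisons. Between siSLC25A1 and siACO1, the ACSL3 difference of 0.14 (adjusted p = 0.0100) was not called with library totals (log2 0.09, adjusted p = 0.0774), without a filter (log2 0.13, adjusted p = 0.0546) or without siSLC25A1 replicate 2 (log2 0.12, adjusted p = 0.0602). The AGPS difference there, -0.10 (adjusted p = 0.0494), was lost when any 1 library of the 2 groups other than siACO1 replicate 3 was left out (log2 -0.12 to -0.08, adjusted p from 0.0519 to 0.206), and with DESeq2 (log2 -0.10, adjusted p = 0.0805). That AGPS call was also lost with median-of-ratios factors, without a filter on low counts and in a fit of the 2 groups alone. The count of 5 became 3 without a filter on low counts and 3 without siSLC25A1 replicate 2.

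The wider pathways were described with 7 gene lists that include the genes above and were also chosen with earlier results known. The share called in each is given for siSLC25A1, siACLY and siACO1 in that order. Of 17 acyl-CoA synthetases 10 were tested, and 2 were higher and 2 lower in siSLC25A1, 2 and 3 in siACLY, and 2 and 2 in siACO1. That is 40%, 50% and 40%, beside 19.6%, 36.7% and 37.1% of all genes. Outside the ACSL genes, SLC27A5, a fatty acid transport protein that also activates bile acids, fell by 0.84 in siSLC25A1 (log2, SE 0.13, adjusted p = 2.65e-05) and by 0.44 in siACLY (SE 0.13, adjusted p = 0.00663). ACSF2, of the same enzyme superfamily, fell by 0.23 in siSLC25A1 (adjusted p = 0.0326) and rose by 0.36 in siACLY (adjusted p = 0.000220). In siACO1 SLC27A1 rose by 0.22 (adjusted p = 0.0152) and ACSF3, the mitochondrial malonyl-CoA synthetase, fell by 0.12 (adjusted p = 0.0494).

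Of the 14 acyl-CoA thioesterases and binding proteins, which release or carry the activated acids, 12 were tested, and 1 was higher and 1 lower in siSLC25A1, 4 and 0 in siACLY, and 3 and 4 in siACO1. These are 16.7%, 33.3% and 58.3% of the list, against 19.6%, 36.7% and 37.1% of all genes. FABP5, a fatty acid carrier, rose by 0.25 in siACLY (log2, adjusted p = 0.0458) and fell by 0.78 in siACO1 (adjusted p = 1.29e-06). The thioesterase ACOT13 rose by 0.56 in siACO1 (adjusted p = 6.76e-07) and ACOT2 by 0.24 in siACLY (adjusted p = 0.00359), with a fall of ACOT2 by 0.19 in siACO1 (adjusted p = 0.0216).

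Among 14 tested lysophospholipid acyltransferases of 16 listed, 3 were higher and 2 lower in siSLC25A1, 2 and 6 in siACLY, and 5 and 3 in siACO1, or 35.7%, 57.1% and 57.1% against 19.6%, 36.7% and 37.1% of all genes. AGPAT4 rose beside MBOAT2, by 0.36 in siSLC25A1 (log2, adjusted p = 0.0112), 0.44 in siACLY (adjusted p = 0.000660) and 0.41 in siACO1 (adjusted p = 0.00159). AGPAT3 fell by 0.31 in siACLY (adjusted p = 4.46e-07). In siACO1 MBOAT7, which places arachidonic acid in phosphatidylinositol, rose by 0.47 (adjusted p = 0.000162). The median over the list in siACLY was -0.12, and LPCAT3 had the largest fall in it. AGPAT1, with 30.2% of its exon bases shared with other genes, rose by 0.44 in siACO1 (adjusted p = 6.99e-05) and fell by 0.27 in siACLY (adjusted p = 0.0137).

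Phospholipases A2 cut the acyl chain back out of the phospholipid. Of 15 listed 12 were tested, and 2 were higher and 2 lower in siSLC25A1, 4 and 2 in siACLY, and 4 and 2 in siACO1. The shares were 33.3%, 50% and 50%, beside 19.6%, 36.7% and 37.1% of all genes. PLA2G4C rose by 1.09 in siACLY (log2, SE 0.20, adjusted p = 7.41e-05) and fell by 0.89 in siACO1 (SE 0.24, adjusted p = 0.00433), from 1.47 CPM in siControl and so had the signs of ALOXE3 in these 2 knockdowns. PNPLA8 rose by 0.59 in siACLY (adjusted p = 3.16e-08) and by 0.26 in siSLC25A1 (adjusted p = 0.00508). PNPLA6 fell by 0.36 in siSLC25A1 (adjusted p = 4.83e-06) and rose by 0.33 in siACO1 (adjusted p = 5.71e-06). PLA2G12A fell by 0.38 in siSLC25A1 (adjusted p = 0.000676) and by 0.37 in siACLY (adjusted p = 0.000296). PLA2G6, a gene whose exons overlap others by 22.5%, rose by 0.64 in siACO1 (adjusted p = 0.000439).

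Of 22 ether lipid and peroxisome genes 20 were tested, and 2 were higher and 3 lower in siSLC25A1, 4 and 8 in siACLY, and 5 and 4 in siACO1, or 25%, 60% and 45% beside 19.6%, 36.7% and 37.1% of all genes. PEDS1, the desaturase that makes the vinyl ether bond of plasmalogens, fell by 0.51 in siACLY (log2, adjusted p = 3.89e-05). TMEM86A, which breaks down lysoplasmalogens, rose by 1.79 in siACLY (SE 0.29, adjusted p = 1.10e-05) and 1.54 in siACO1 (SE 0.29, adjusted p = 0.000106), from 0.520 CPM in siControl. GNPAT, the enzyme before AGPS, and FAR2, the relative of FAR1, were picked after their values were seen: GNPAT fell by 0.29 in siACLY (adjusted p = 1.41e-05) and 0.18 in siACO1 (adjusted p = 0.00354), and FAR2 rose by 0.34 (adjusted p = 0.00466) and 0.28 (adjusted p = 0.0200). The peroxisome biogenesis gene PEX6 fell by 0.40 in siSLC25A1 (adjusted p = 5.78e-06) and by 0.48 in siACLY (adjusted p = 8.70e-08) and rose by 0.21 in siACO1 (adjusted p = 0.00326). PEX10, with 39.1% of its exon bases shared with other genes, fell by 0.51 in siACO1 (adjusted p = 5.65e-08).

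Of 18 lipoxygenases and electron donors only 9 were tested. ALOX5, ALOX12B, ALOX15, ALOX15B, PTGS1 and PTGS2 were among those without enough counts, which left ALOXE3 and ALOX12, named after its values were seen, as the lipoxygenases tested. ALOX12 measured 5.13 ± 0.305 CPM in siControl (SD, n = 3) and was called in no knockdown against it (adjusted p from 0.0678 to 0.424). In siSLC25A1 1 gene was higher and 1 lower, in siACLY 2 and 1, and in siACO1 4 and 1, which is 22.2%, 33.3% and 55.6% beside 19.6%, 36.7% and 37.1% of all genes. PEBP1, a partner of lipoxygenases in lipid peroxidation, fell by 0.23 in siSLC25A1 (log2, adjusted p = 0.000315) and by 0.12 in siACLY (adjusted p = 0.0307). CYB5R1, a reductase that with POR can feed lipid peroxidation, rose by 0.50 in siACO1 (adjusted p = 8.45e-07), where POR itself was not called.

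The lipid peroxide defence list had all 16 genes tested, with 4 higher and 5 lower in siSLC25A1, 4 and 5 in siACLY, and 4 and 7 in siACO1. Of this list 56.2%, 56.2% and 68.8% were called, beside 19.6%, 36.7% and 37.1% of all genes. GCH1, which starts the synthesis of the radical-trapping cofactor tetrahydrobiopterin, rose in each, by 0.57 (log2, adjusted p = 0.00101), 1.37 (adjusted p = 8.98e-11) and 1.38 (adjusted p = 6.79e-11). The thioredoxin reductase gene TXNRD1 rose by 0.46 in siSLC25A1 (adjusted p = 2.68e-10) and fell by 0.55 in siACO1 (adjusted p = 2.19e-12). DHCR7, the last enzyme of cholesterol synthesis, rose by 0.50 in siACLY (adjusted p = 6.32e-08) and by 0.36 in siACO1 (adjusted p = 1.33e-05) and fell by 0.38 in siSLC25A1 (adjusted p = 1.97e-05). The importin IPO5 fell by 0.69 in siACO1 (adjusted p = 8.52e-14). DHCR7 and IPO5 do not themselves remove peroxides, and a rise of DHCR7 is not read as more defence. The counts of higher and lower genes in this list therefore do not measure defence. The medians of the 7 lists in the 3 comparisons lay between -0.12 and 0.14 on the log2 scale, beside 0.00 to 0.01 over all genes, and each median runs over genes called in both directions, the members included.

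**Figure D4:**
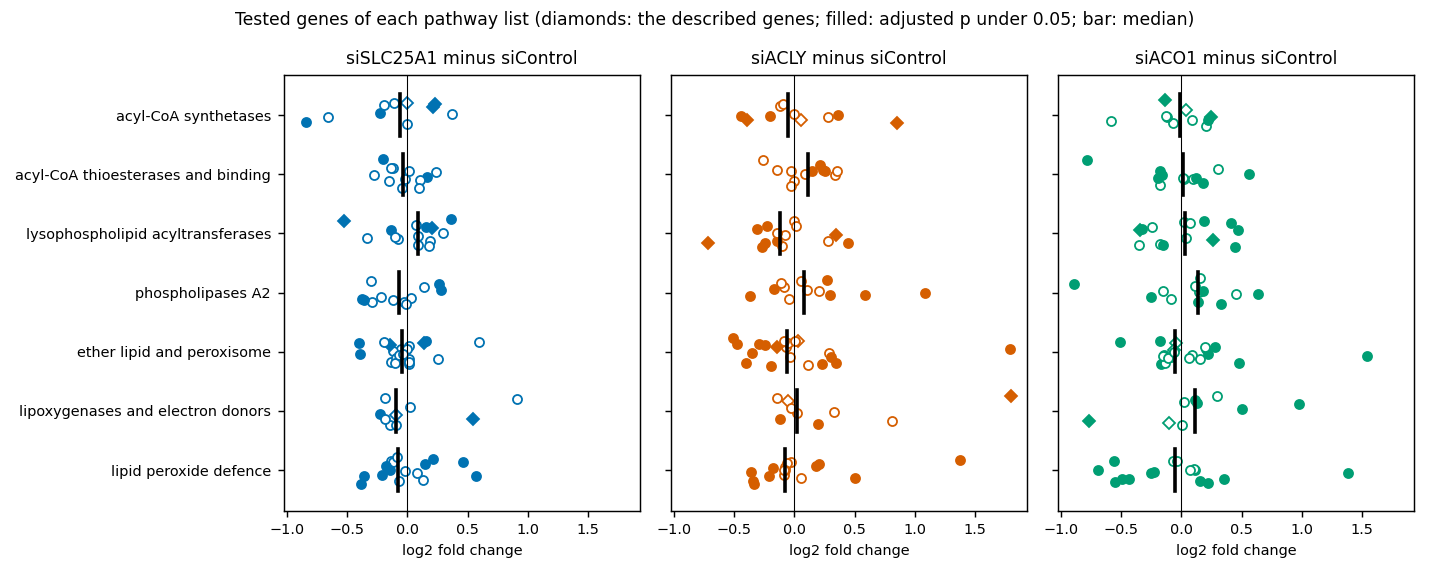
Log2 fold change against siControl (x axis) of every tested gene in the 7 pathway lists (y axis), by knockdown. Diamonds are the genes described at length and circles the other list genes, filled symbols have an adjusted p under 0.05, and bars are list medians. The medians stay between -0.12 and 0.14, while ALOXE3, TMEM86A, PLA2G4C and GCH1 reach above 1 in siACLY.

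The genes whose log2 CPM over the 12 libraries most resembled that of ACSL4 were IGF2BP3 (Pearson's r = 0.980), SLC45A1 (r = 0.974) and AREG (r = 0.972), an RNA-binding protein, a sugar transporter and an EGF receptor ligand. IGF2BP3 averaged 214, 243, 320 and 250 CPM in siControl, siSLC25A1, siACLY and siACO1. For ALOXE3 the nearest were AKAP12 (r = 0.975), DPH5-DT (r = 0.966) and KLF9 (r = 0.963), and AKAP12 averaged 6.36, 8.45, 18.6 and 5.47 CPM. Among the genes described here, ACSL4 ran opposite to ACSL3 (r = -0.918) and to LPCAT3 (r = -0.821). These are descriptions over 12 libraries in 4 groups, which share libraries, and the siACLY group is highest for each of the 6 genes.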

How the data were processed

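The authors deposited 1 table of whole-number read counts per gene, not normalized, with 1 column per library, per the file headers and its values. CASAVA, FastQC, Trim Galore, STAR 2.7.0e and DESeq2, and the builds GRCh38 and GRCm39, appear without roles, per the submitters' processing notes. The counting tool, annotation release and use of strand are not given in the sources used here. Symbols were matched for 62700 of 70116 identifiers (89.4%), and unmatched ones, 0.119% to 0.148% of a library's counts, stayed in. Coordinates are from GENCODE 29 on GRCh38, and promoters from RefSeq on GRCh38.p14.

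Counts of 24159424 to 43792811 per library were fitted in edgeR 4.0.16 (R 4.3.3, limma 3.58.1) with filterByExpr, TMM scaling and its robust quasi-likelihood option, over the 12 libraries in 4 groups, with 8 residual degrees of freedom and a common biological coefficient of variation of 4.89%. Tests were two-sided, adjusted over 16197 genes, and called at an adjusted p under 0.05. SE is the fold change divided by the square root of F. Correlations used log2 CPM with a pseudocount of 0.5. A gene with at least 20% of its exon bases shared with another was treated as uncertain.

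The members and lists were chosen with earlier results of these data known. Besides members and targets, named genes are the 2 largest called changes per list and comparison at 1 CPM or more, and the 3 genes most like ACSL4 and ALOXE3, and others are said to be chosen later. 1 result under that rule is left out. Alternatives were median-of-ratios factors, library totals, DESeq2 1.42.0, other filters, a replicate block, a fit of the 2 compared groups alone and leaving out each library. The scripts were tested on simulated data.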

Additional observations from a re-analysis of the deposited data

How the results depend on the processing

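The 9 tested genes gave 54 fold changes over 6 comparisons, recomputed in 702 alternative values: 632 kept their direction and side of the threshold, 37 lost a call, 12 gained one and 21 changed sign. 30 of the 54 results kept both throughout. Each change of sign concerned a difference near 0. ACSL3 in siSLC25A1 against siControl became -0.0102 without a filter, -0.000323 with at least 10 counts in every library, and -0.0255 to 0.0273 with libraries left out. AGPS in siACO1 against siControl became 0.00704 with library totals, and in siSLC25A1 against siACLY 0.00198 with median-of-ratios factors, 0.00561 with DESeq2 and -0.0180 to 0.0153 with libraries left out. In siSLC25A1 against siACO1, POR became -0.0399 with library totals, -0.00331 without a filter and -0.00595 with at least 10 counts. With libraries left out, POR there ran from -0.0230 to 0.0262, ACSL4 from -0.0486 to 0.0202 and MBOAT2 from -0.13 to 0.0231, and ACSL1 in siACLY against siACO1 from -0.0253 to 0.0687. The called genes among the 9 numbered 3 to 6 in siSLC25A1 against siControl with a library left out (7 with all) and 3 to 5 in siSLC25A1 against siACO1, and 3 there without a filter (5 with it). The cause was not tested. Scaling by library totals moved the share of called genes that were higher in siACLY from 50.1% to 61.0%, and that in siACO1 from 47.9% to 59.5%.

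Same-numbered libraries correlated at -0.034 to 0.0672 in their deviations, so the numbers were not taken as pairs. With the replicate block, 7, 6 and 6 of the 9 genes were called against siControl, POR in siACO1 being added (log2 -0.10, adjusted p = 0.0437), and 3270, 6038 and 6093 of all genes.

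Depth limits ACSL5, at 0 to 6 counts per library, and ALOXE3 in siACO1, at 23 to 43 counts. The LPCAT3 counts cannot be told apart from EMG1 reads where strand was not used. Transcript counts do not measure enzyme activity or lipid composition.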
